A study of Mus musculus with 51 samples.

Results

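Arg1 and the core genes of polyamine synthesis were followed through the differentiation of mouse embryonic stem cells into cardiac mesoderm, and through the loss of Smad4, Eomes and T. The 8 genes were taken by symbol from tables that list 24538 genes: Arg1, Odc1, Amd1, Amd2, Srm, Sms, Oaz1 and Sat1. All 8 were found in each of the 9 tables. They were selected on their FPKM levels in these same conditions, with the day 3 difference of Arg1 between WT and KO cells known, so their values are given as a description and no test is applied to them.

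RNA-seq values were available for 14 conditions from 18 RNA samples. F1G4 wild-type (WT) cells were measured as ES cell aggregates before induction and on days 1, 2 and 3 of induction with 20 ng/ml Bmp4, with 2 samples per stage. Eomes KO, T KO and Eomes/T double KO (dKO) cells were derived from F1G4, with promoter and first exon removed by paired Cas9 nickases; the dKO was made from Eomes KO cells, and each line was measured on days 2 and 3. Smad4 KO cells, in which Cre had removed a floxed first exon, and the floxed WT cells of that line, which has another genetic background than F1G4, were measured on days 1 and 2. The labels give 1 sample for each of these groups, whereas the study's figure legends describe the KO values as averages of replicates; the fragment counts and limits below take each of these columns as 1 library. Each KO line is a clone. Binding and accessibility samples of the series were not analysed here.

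Polyamines are small, positively charged molecules that bind nucleic acids and are needed in growing cells. Arginase, the product of Arg1, turns arginine into ornithine and urea; ornithine decarboxylase (Odc1) makes putrescine from ornithine. The S-adenosylmethionine decarboxylases (Amd1 and Amd2) supply the aminopropyl groups that spermidine synthase (Srm) and spermine synthase (Sms) add in turn. Antizyme (Oaz1) sends Odc1 to the proteasome, and Sat1 acetylates spermidine and spermine so that they can be exported or broken down. Arg1 is best known from liver and from macrophages, where it is a marker of alternative activation.

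Levels are in FPKM, counts of fragments scaled to transcript length and to library size. Multiplied by transcript length, the FPKM of a KO column were whole multiples of the worth of 1 fragment: over genes with 1 curated transcript and under 50 fragments, 91.7% to 92.5% were whole within 0.05. Each column of a KO line or of the Smad4 line held 1 such step, as 1 library gives, so fragments could be counted. Each F1G4 WT column held 2 steps, as the mean of 2 libraries gives. Since the WT columns of days 2 and 3 appeared in 4 tables each with different steps, the mean could be split into its libraries for 99.8% (day 2) and 99.7% (day 3) of genes above 1 FPKM. These are called the deeper and the shallower WT library, and their replicate numbers are not known. The libraries held 8511000 (T KO, day 2) to 18918000 (T KO, day 3) fragments on genes with 1 transcript.

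Arg1 and the 2 Amd genes needed separate care for different reasons: Arg1 because it rests on few fragments outside day 3 WT cells, and Amd1 and Amd2 because they are nearly the same sequence. Amd1 (mm10 chr10:40287458-40302188, minus strand) has 8 exons and a transcript of 3206 bases. Amd2 (mm10 chr10:35708691-35711891, minus strand) is a single-exon copy of 3201 bases. Their coding sequences, 1005 bases each in the reference genome, differ at 1 base. The difference is G796C, written as the Amd1 base, the position from the A of the start codon, and the Amd2 base. The stretch around it is shown 5′ to 3′, with that base in capitals, because no other coding base can assign a read to either gene. It spans chr10:40290126-40290246 in exon 7 of Amd1 and chr10:35710704-35710824 in Amd2.
Amd1: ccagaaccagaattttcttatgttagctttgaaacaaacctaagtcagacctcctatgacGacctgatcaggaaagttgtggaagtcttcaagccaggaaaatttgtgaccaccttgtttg
Amd2: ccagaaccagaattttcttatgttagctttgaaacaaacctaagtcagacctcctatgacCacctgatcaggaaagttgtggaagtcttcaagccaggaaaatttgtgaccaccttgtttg

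Of the 3157 windows of 50 bases in the Amd1 transcript, 2714 (86.0%) were found unchanged in Amd2, and of the 3152 windows in Amd2 86.1% were found in Amd1. The reads were pairs of that length, so most fragments of either gene match both. Their sum is therefore read beside each of them throughout.

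Arg1, at chr10:24915207-24927470 on mm10, was near 0 in ES cells and until day 2 of WT differentiation and was then high on day 3. Its level was 0.0121 FPKM in ES cells, 0.0132 FPKM on day 1, 0 on day 2 and 16.0 FPKM on day 3. The values in ES cells and on day 1 each equal 1 fragment in the deeper library of the stage. The 14 conditions thus fell into day 3 WT cells and 13 conditions at or below 0.287 FPKM. In a bulk culture, more cells with Arg1 and more Arg1 RNA per cell cannot be told apart.

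The pair of day 3 WT libraries differed widely in Arg1. The deeper library held 1198 Arg1 fragments, or 27.9 FPKM, and the shallower library 162 fragments, or 4.14 FPKM. The difference, 2.75 on the log2 scale, was reached or exceeded by 0.689% of the genes split on day 3, and 8.07% of those genes were more than 2-fold apart. Other mesoderm genes were also higher in the deeper library, by less: T was at 351 and 288 FPKM, Mixl1 at 21.7 and 9.52 FPKM, and Eomes at 25.3 and 13.6 FPKM in the deeper and shallower library. Among pluripotent cell markers, Sox2 was further apart than Arg1, at 37.2 and 3.61 FPKM, and Dppa3 was at 22.4 and 9.63 FPKM, while Nanog (115 and 122 FPKM) and Pou5f1 (486 and 444 FPKM) were close. The part of these differences in that of Arg1 was not tested. The deposited mean of Arg1 on day 3 is thus set mostly by the deeper library.

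**Figure D1:**
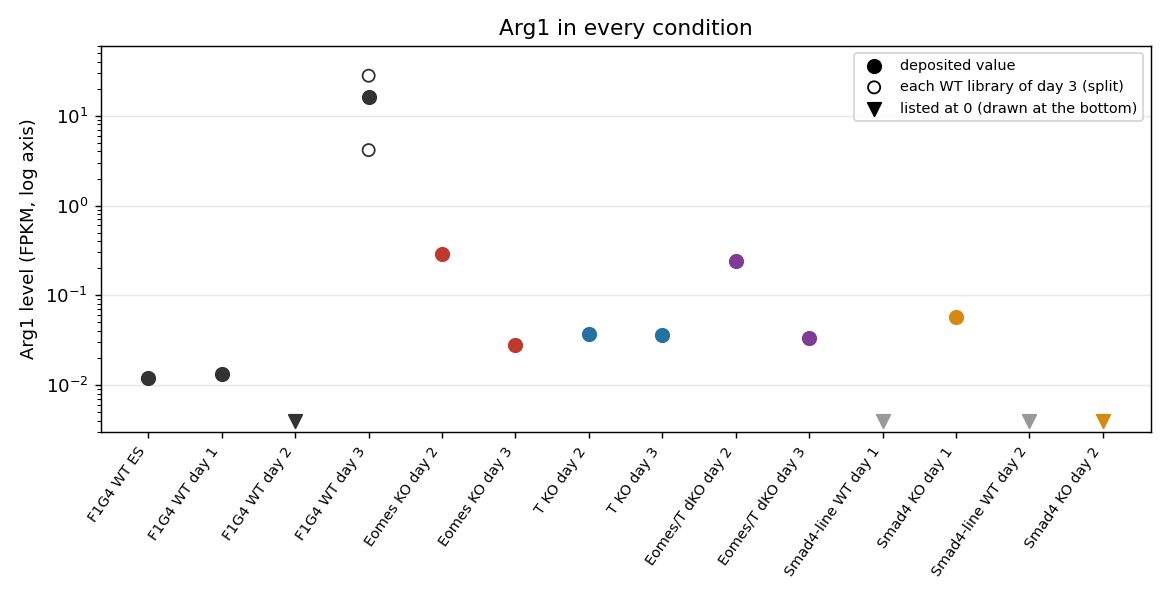
Arg1 level in FPKM on a log axis in each of the 14 conditions, with deposited values filled and both day 3 WT libraries open. Triangles at the bottom are values of 0. The WT libraries of day 3, at 27.9 and 4.14 FPKM, lie above every other condition, of which Eomes KO on day 2 is the highest at 0.287 FPKM.

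All 3 F1G4-derived KO lines lacked this Arg1 level on day 3. Eomes KO cells held 1 Arg1 fragment (0.0277 FPKM, exact 95% Poisson limits 0.000702 to 0.155), T KO cells 2 fragments (0.0362 FPKM, 0.00438 to 0.131) and dKO cells 1 fragment (0.0334 FPKM, 0.000847 to 0.186). These limits, like the others given here, cover counting error only. Each KO library was below both WT libraries, also below the shallower. Against the shallower WT library, WT was 157 times Eomes KO (exact 95% counting interval 27.9 to 6259), 116 times T KO (31.6 to 966) and 130 times dKO (22.9 to 5150). Against the deeper library the ratios were 1045 (187 to 41291), 777 (215 to 6421) and 863 (155 to 34130). The 3 comparisons share the same WT libraries.

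On day 2, Arg1 rested on more than 1 fragment in 2 KO lines and on none in WT. Eomes KO cells held 12 fragments (0.287 FPKM, 0.148 to 0.501) and dKO cells 9 fragments (0.238 FPKM, 0.109 to 0.452). T KO cells held 1 fragment (0.0374 FPKM), and Arg1 was listed at 0 in the mean of the WT libraries. All these values are under 1 FPKM, and by day 3 the same Eomes KO and dKO lines were at 1 fragment each. Day 3 WT was thus highest, followed by Eomes KO and dKO on day 2. Their counting intervals overlap each other and those of several conditions with 1 or 2 fragments, such as T KO on day 2 (up to 0.208 FPKM). The order among these is not resolved. The day 2 limits of Eomes KO lay above those of T KO on day 3 (up to 0.131 FPKM). Those of Eomes KO and dKO both lay above the limits of Smad4-line WT on both days and of Smad4 KO on day 2 (up to 0.106 FPKM).

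In the Smad4 line, Arg1 could be read only before the stage at which F1G4 cells express it. It was at 0 fragments in WT on days 1 and 2 and in Smad4 KO on day 2, and at 2 fragments (0.0567 FPKM, 0.00687 to 0.205) in Smad4 KO on day 1. An Arg1 difference between Smad4 KO and WT cells was not detectable at this depth on either day, and day 3 was not analysed here for this line. Arg2, the mitochondrial arginase, stayed between 0.0162 and 1.16 FPKM over the 14 conditions, highest in Smad4 KO on day 2. Otc, which uses ornithine in the hepatic urea cycle, was at 0 in all 14.

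The cells in which Arg1 is known best were not apparent from their markers. Of 12 macrophage and blood markers, only Cd68 passed 1 FPKM in any condition (1.44 to 7.98 FPKM), with Adgre1 at 0 in all 14 and the other defining markers Csf1r, Ptprc and Mrc1 at most at 0.876 FPKM. The summed level of this list was 6.03 FPKM in day 3 WT and 9.48, 7.64 and 6.81 FPKM in Eomes KO, T KO and dKO on that day. Of 9 hepatocyte and visceral endoderm markers, only Foxa2, which also marks endoderm and midline cells, passed 1 FPKM in day 3 WT (4.50 FPKM), with Alb and Ttr at 0. Their sum was 4.74 FPKM in day 3 WT and 1.75 to 2.92 FPKM in the KO lines of that day. Ttr and Apoa1 were at 1.19 and 1.21 FPKM in Eomes KO and at 0.608 and 0.514 FPKM in dKO on day 2, where Arg1 was at 12 and 9 fragments. They were at 1.11 and 0.290 FPKM in Eomes KO and at 1.25 and 0.700 FPKM in dKO on day 3, where Arg1 was at 1 fragment. Their part in the Arg1 values was not tested. The 8 feeder fibroblast markers summed to 3.22 FPKM in day 3 WT and 2.09 to 5.29 FPKM in the KO lines. The labelled cell type carried its own markers: T was at 320 FPKM and Mesp1, the cardiac mesoderm regulator, at 5.45 FPKM in day 3 WT. Pluripotent cell markers were present too. Pou5f1 was at 1002 FPKM in ES cells and 465 FPKM in day 3 WT, and Nanog at 148 and 119 FPKM. Sox2 (256 and 20.4 FPKM), Dppa3 (218 and 16.0 FPKM) and Esrrb (70.2 and 1.45 FPKM) were much lower on day 3.

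The targeted genes were read as far as the tables allow. T was at 43.5 and 320 FPKM in WT on days 2 and 3, at 6.64 and 3.00 FPKM in T KO and at 2.77 and 1.93 FPKM in dKO. T was also low in Eomes KO on day 3, at 4.46 FPKM. Eomes was at 9.50 and 19.4 FPKM in WT, at 2.42 and 0.276 FPKM in Eomes KO and at 1.24 and 0.346 FPKM in dKO. In T KO Eomes was higher than WT on day 2 (24.7 FPKM) and lower on day 3 (4.83 FPKM). The gene-level value of Smad4 was 33.8 FPKM in WT and 39.4 FPKM in KO on day 1, and since only the first exon was deleted it does not check the Smad4 label.

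The genes whose pattern over the 14 conditions was most like that of Arg1 were Msgn1 (Pearson r = 0.94 of log2(FPKM + 0.1)), Crot (0.88), Appl1 (0.87), Aplnr (0.81) and Vim (0.81), among genes reaching 10 FPKM. Many of the 14 points share WT libraries or a line, so no p is given. As Arg1 was high in day 3 WT alone, each r rests largely on that 1 condition. Msgn1, a transcription factor gene of presomitic mesoderm, was at 21.6 FPKM in day 3 WT and at 0 in all 10 KO and Smad4-line conditions. Aplnr, the apelin receptor gene, was at 12.3 FPKM in day 3 WT and below 0.3 FPKM elsewhere. In the deeper and shallower WT libraries of day 3, Msgn1 was at 26.1 and 17.1 FPKM and Aplnr at 12.1 and 12.5 FPKM, closer together than Arg1. Of the genes next to Arg1, Akap7 was at 5.47 FPKM in ES cells and 11.1 FPKM on WT day 3, just past 2-fold (1.02). Med23 was at 8.80 FPKM on day 2 and 9.40 FPKM on day 3 of WT, and Akap7 at 6.57 and 11.1 FPKM. On day 3 the log2 ratios of Med23 and Akap7 to WT lay between -0.13 and 0.47 in the 3 KO lines, none past 2-fold. Epb41l2, further along, was past 2-fold in T KO on day 2 only (-1.97).

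Outside Arg1, the pathway was expressed in every condition, with Amd1 near 0 in some. Amd2, Srm and Sms were more than 2-fold lower on WT day 3 than in ES cells, but the Amd sum was not. A gene was examined where it passed 1 FPKM in either group and was counted where the groups differed more than 2-fold, with no pseudocount. By this rule 31.1% of all genes examined differed between WT day 3 and ES cells, 12.6% being lower and 18.5% higher, and of the 8 genes 3 were lower (Amd2, Srm and Sms) and 1 was higher (Arg1). The median log2 ratio of the 8 genes, with 0.1 added to each FPKM, was -0.43, beside -0.02 over all genes examined. Between day 1 and ES cells 13.5% of all genes passed (5.84% lower, 7.7% higher) and of the 8 genes Amd1 (higher) and Amd2 (lower). Between day 2 and ES cells 23.3% passed (9.08% lower) and of the 8 genes Amd2 and Sms, both lower. The Amd sum did not pass on any day, with log2 ratios to ES cells of -0.30 on day 1, -0.53 on day 2 and -0.83 on day 3.

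Odc1 (chr12:17544808-17551502), the entry enzyme, was the most abundant of the 8 genes per length in each of the 14 conditions and had ranks 111 to 187 among all genes. In WT it was at 642 FPKM in ES cells, 588 FPKM on day 1, 496 FPKM on day 2 and 363 FPKM on day 3. The deeper and shallower libraries were at 517 and 475 FPKM on day 2 and at 303 and 424 FPKM on day 3, so the days did not overlap. The difference between day 3 and ES cells was -0.82 on the log2 scale, short of 2-fold.

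Apart from Arg1, Srm (chr4:148591513-148594619) had the largest difference along the time course among the enzymes. It was at 45.7 FPKM in ES cells, 36.7 FPKM on day 1, 28.1 FPKM on day 2 and 12.6 FPKM on day 3, a log2 difference of -1.86 from ES cells. The libraries of day 2 (29.7 and 26.4 FPKM) and of day 3 (11.8 and 13.5 FPKM) did not overlap. Sms (chrX:157443851-157492287) was at 90.3 FPKM in ES cells, 74.7 FPKM on day 1, 44.4 FPKM on day 2 and 43.9 FPKM on day 3. Unlike Srm, Sms was nearly level between day 2 and day 3, and its libraries of day 2 (54.3 and 34.5 FPKM) enclosed those of day 3 (43.4 and 44.3 FPKM). The Sms difference from ES cells, -1.02 on day 2 and -1.04 on day 3, lay close to the 2-fold limit and lost it under both rescalings of the columns, with -0.88 and -0.91 in TPM.

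The sum of Amd1 and Amd2 was lower at each successive stage, at 61.2, 49.8, 42.5 and 34.5 FPKM from ES cells to day 3. The libraries of day 2 (39.3 and 45.7 FPKM) and of day 3 (33.4 and 35.7 FPKM) did not overlap. Between day 2 and day 3, in all, Odc1, Srm and the Amd sum were lower and Arg1 was higher with no overlap of the libraries, while Sms, Oaz1 and Sat1 overlapped. Such lack of overlap was seen for 44.6% of all genes split on both days, 21.4% in the lower and 23.2% in the higher direction.

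Oaz1 and Sat1, which limit polyamines, did not follow the enzymes. Oaz1 (chr10:80826656-80829290) stayed between 39.0 and 40.6 FPKM from ES cells to day 3, the flattest course of the 8 genes. The ratio of Odc1 to Oaz1 was accordingly 15.8 in ES cells and 9.21 on day 3. Sat1 (chrX:155213126-155216449) was at 31.5 FPKM in ES cells, 18.1 FPKM on day 1, 50.9 FPKM on day 2 and 52.1 FPKM on day 3. Its libraries were close on day 3 (50.2 and 54.1 FPKM) and were more than 2-fold apart on day 2 (32.0 and 69.9 FPKM), a gap reached by 4.15% of the genes split on that day. Between the same libraries T was also higher in the shallower (28.1 and 59.0 FPKM in the deeper and shallower), whereas Eomes (10.4 and 8.56 FPKM), Nanog (179 and 62.4 FPKM) and Dppa3 (46.6 and 22.7 FPKM) were higher in the deeper; their part in the Sat1 gap was not tested. Between day 2 and day 1, when 11.3% of all genes passed and 7.18% were higher, Sat1 was the only one of the 8 past 2-fold (1.49); between day 3 and day 2, when 10.2% passed (4.06% lower, 6.14% higher), Arg1 was higher and Srm lower.

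**Figure D2:**
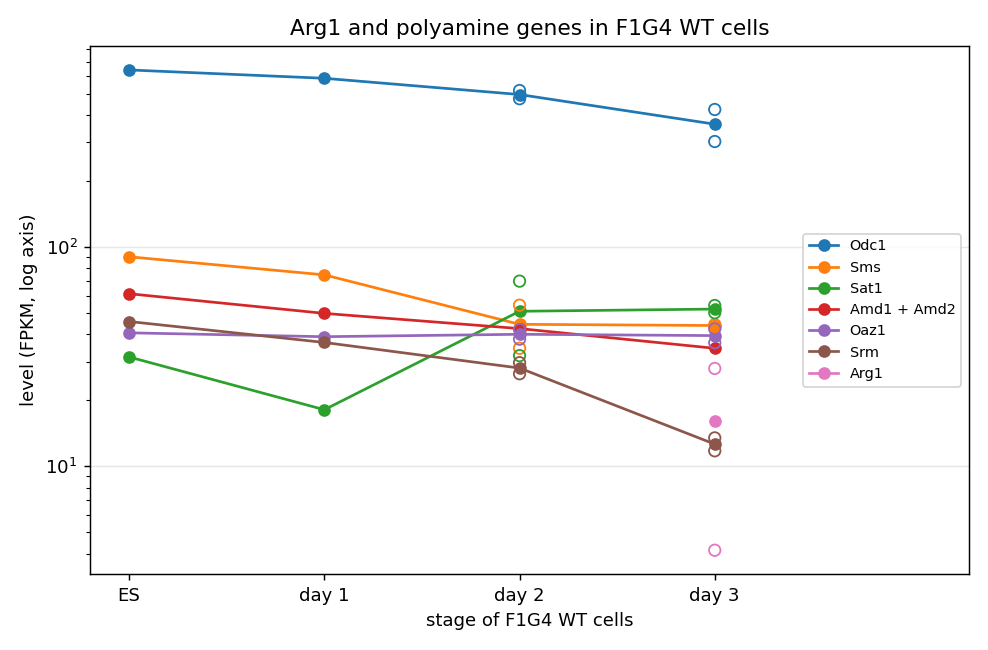
Levels in FPKM on a log axis in F1G4 WT cells by stage, with deposited means joined by lines and, for days 2 and 3, each library of a gene listed alone as an open circle where its mean could be split. Odc1, Srm and the Amd sum run downward, Oaz1 stays near 40 FPKM, and Arg1 is drawn for day 3 alone, at 16.0 FPKM.

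In the KO lines the pathway genes were compared with WT of the same table. The 2-fold rule counted 4.77% and 5.77% of all genes between Smad4 KO and its WT on days 1 and 2, 7.52% and 16.4% for Eomes KO, 15.6% and 6.04% for T KO, and 7.99% and 11% for dKO on days 2 and 3. Of the 8 genes, Amd1 was higher in Smad4 KO on day 1, as were 2.36% of all genes, and Sat1 was lower on day 2, as were 3.21%. Sat1 was lower in Eomes KO on day 2 (4.17% of all genes), and Arg1, Amd1, Sms and Sat1 were lower on day 3 (9.01%). Amd1 and Srm were lower in T KO on day 2 (9.93%), and Arg1 and Amd1 on day 3 (3.92%). None of the 8 genes passed in dKO on day 2, and Arg1 and Sms were lower on day 3 (5.53%). Rescaling to TPM shifted the ratios of all genes by -0.22 in Eomes KO and -0.41 in dKO on day 2 and by 0.28 in Eomes KO on day 3, and by 0.14 or less in size in the other comparisons. Every gene past the rule other than Amd1 in Smad4 KO was lower, and the Amd sum passed in none of the 8 comparisons.

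**Figure D3:**
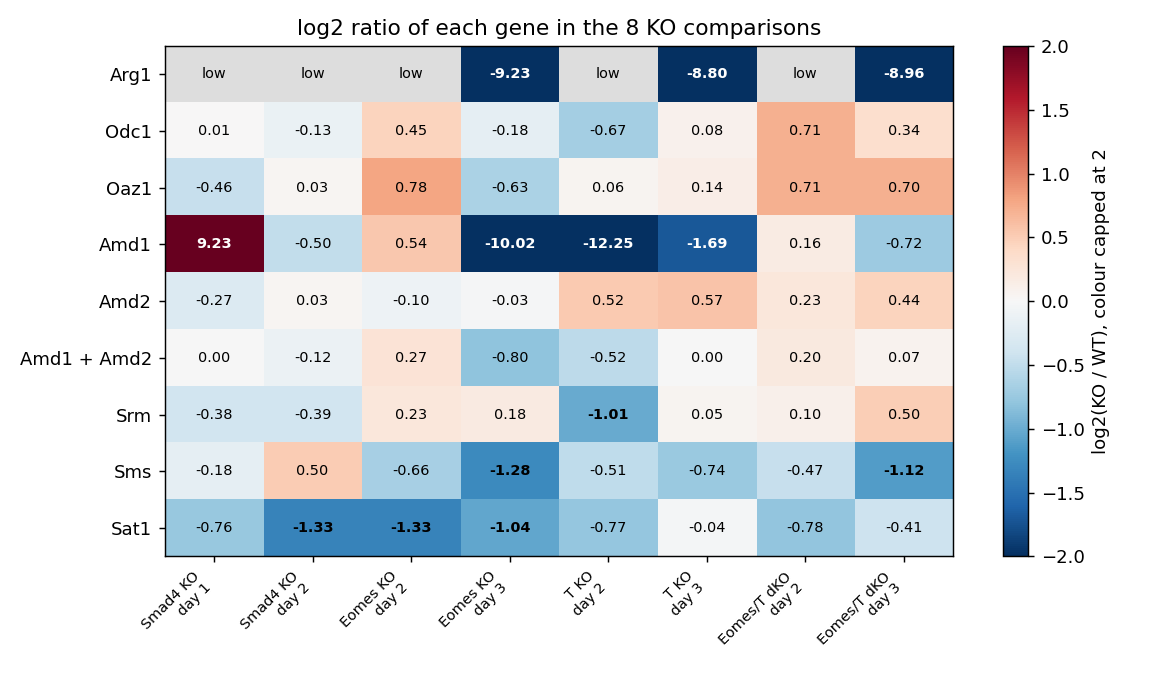
log2 ratio of KO to WT in the 8 KO comparisons, with differences past 2-fold in bold and colour capped at 2 in either direction. Cells marked low are under 1 FPKM in both groups. Amd1 runs from -12.25 (T KO, day 2) to 9.23 (Smad4 KO, day 1), while the Amd sum stays between -0.80 and 0.27.

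Amd1 gave the largest ratios of all, and Amd2 did not mirror its size. Amd1 was at 0.0144 FPKM in Eomes KO on day 3 against 15.0 FPKM in WT, at 0.00462 FPKM in T KO on day 2 against 22.5 FPKM, and at 4.46 FPKM in T KO on day 3 against 14.4 FPKM. In the Smad4 line on day 1 the low value was on the WT side, at 0.0121 FPKM against 7.29 FPKM in KO. The same kind of difference separated WT cells of the Smad4 line and of F1G4 on day 1 (0.0121 and 29.5 FPKM, log2 ratio -11.25), with their Amd sums at 43.4 and 49.8 FPKM (-0.20).

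The Amd sum was at 43.3 FPKM in Smad4 KO and 43.4 FPKM in WT on day 1 and at 34.8 FPKM in T KO and 34.9 FPKM in WT on day 3, so that in these comparisons no difference was left. It was lower than both WT libraries in Eomes KO on day 3 (20.7 FPKM against 34.6 and 37.6 FPKM, -0.80 against their mean) and in T KO on day 2 (30.5 FPKM against 40.9 and 46.6 FPKM, -0.52). The share of Amd1 in the sum ranged from 0.0152% in T KO on day 2 to 62.2% in Eomes KO on day 2. Where the same WT libraries were quantified in 4 tables, the share was 51.0% to 51.4% on day 2 and 41.1% to 41.4% on day 3.

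The values of these copies also lacked the whole-fragment grain of other genes. Fragments of Odc1, Srm and Arg1 came out whole within 0.05 in 10 of 10 single-library columns, those of Amd1 in 0 of 10 and those of Amd2 in 1 of 10. The WT means of Amd1 and Amd2 could not be split into libraries, with an error of 11.2% to 46.6% of the mean, whereas their sum could. Levels of either copy alone were thus not counts of fragments assigned to it, and how fragments were divided between them cannot be told apart from a change in either gene.

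**Figure D4:**
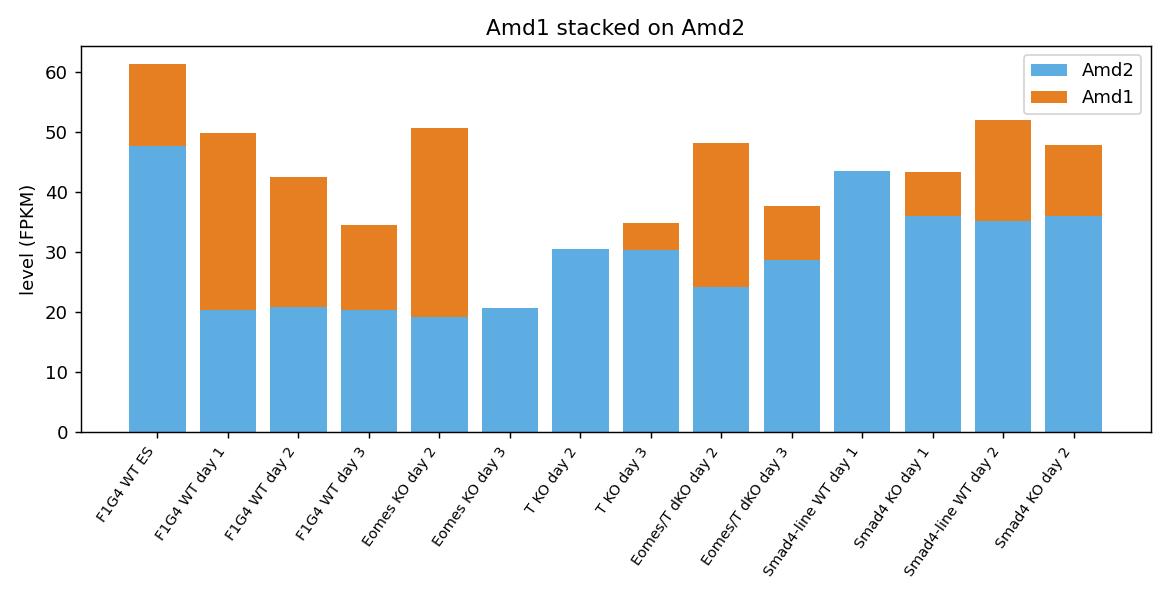
Amd2 (lower part) and Amd1 (upper part) stacked, in FPKM, in the 14 conditions. The Amd1 part is close to 0 in Eomes KO on day 3, T KO on day 2 and Smad4-line WT on day 1, and the height of the bars runs from 20.7 to 61.2 FPKM.

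Odc1 differed less than 2-fold in all 8 KO comparisons. In Eomes KO it was at 671 FPKM on day 2, above both WT libraries (517 and 467 FPKM), and at 336 FPKM on day 3, between them (314 and 446 FPKM), where its small ratio to the mean changed sign with the scaling (-0.18 in FPKM, 0.10 in TPM). In dKO it was at 801 FPKM on day 2 (WT 515 and 467 FPKM), the highest Odc1 level of the series, and at 480 FPKM on day 3 (313 and 443 FPKM), above both WT libraries on each day. T KO was the opposite on day 2, at 321 FPKM and below both WT libraries (539 and 485 FPKM, -0.67 against their mean), and lay between them on day 3 at 387 FPKM. In the Smad4 line Odc1 was at 478 FPKM in WT and 483 FPKM in KO on day 1 and at 440 and 401 FPKM on day 2.

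Oaz1 was above both WT libraries in Eomes KO on day 2 (68.2 FPKM against 41.9 and 37.4 FPKM, log2 ratio to their mean 0.78) and in dKO on day 2 (64.9 FPKM, 0.71) and day 3 (66.9 FPKM, 0.70). In Eomes KO on day 3 it was below both, at 26.7 FPKM against 38.0 and 44.5 FPKM (-0.63). In T KO it was between the WT libraries on day 2 (43.0 FPKM against 43.8 and 38.8 FPKM) and just above them on day 3 (43.9 FPKM against 36.8 and 42.8 FPKM). WT cells of the Smad4 line, at 78.1 FPKM on day 1, differed from F1G4 WT of that day by 1.00 on the log2 scale, more than any KO comparison of Oaz1.

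The aminopropyl transferases behaved differently from each other. Srm was lower in T KO on day 2, at 14.4 FPKM against 30.9 and 27.0 FPKM in the WT libraries, with a log2 ratio of -1.01 to their mean that falls short of the limit against the shallower library alone (-0.91). In Eomes KO and dKO Srm was above both WT libraries on both days in FPKM, from 0.10 to 0.50 against their mean. In TPM, dKO on day 2 was lower than WT (-0.30). In Eomes KO on day 2 the FPKM ratio was 0.23 to the WT mean and 0.14 to the deeper library. Rescaling to TPM shifts that comparison by -0.22, larger in size than the ratio to the deeper library. On day 3 in T KO Srm was between the WT libraries (13.2 against 11.8 and 13.6 FPKM).

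Sms was below both WT libraries in each of the 6 comparisons of F1G4-derived KO lines, which share WT libraries within a day. It was at 28.0 FPKM in Eomes KO, 32.2 FPKM in T KO and 31.9 FPKM in dKO on day 2, where the WT libraries were themselves far apart (54.2 and 34.0 FPKM in the Eomes KO table). On day 3 it was at 18.9 FPKM in Eomes KO (WT 45.0 and 46.6 FPKM, -1.28), 26.6 FPKM in T KO (43.7 and 44.9 FPKM, -0.74) and 20.9 FPKM in dKO (44.9 and 46.3 FPKM, -1.12); in TPM the Eomes KO value was just short of 2-fold. Over all genes split, 40.4%, 30.7% and 37.6% lay below both WT libraries on day 3 in Eomes KO, T KO and dKO, and 5.79%, 2.33% and 3.4% lay more than 2-fold below the lower of both, as Sms did in Eomes KO and dKO. In Smad4 KO Sms was higher than WT on day 2 (74.1 and 52.4 FPKM, 0.50).

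Sat1 was lower than WT in 8 of 8 KO comparisons by the deposited means, past 2-fold in 3. The comparisons of F1G4-derived lines share WT libraries within a day, and the smallest difference was -0.04, in T KO on day 3. How many of all genes were lower in every KO comparison was not counted. It was at 10.1 FPKM in Smad4 KO on day 2 against 25.4 FPKM in WT (-1.33), the lowest Sat1 level of the series, and at 19.1 FPKM against 32.4 FPKM on day 1 (-0.76). In Eomes KO it was at 20.0 FPKM on day 2 and 26.6 FPKM on day 3, below both WT libraries each time. The day 2 difference in Eomes KO, -1.33 against the mean, was -0.68 against the deeper WT library and -1.78 against the shallower, since these libraries were at 31.9 and 68.8 FPKM. On day 3, with WT libraries at 52.0 and 57.0 FPKM, the ratio was -0.97 and -1.10, and -1.04 against the mean lay so close to the limit that it was short of it in TPM (-0.75). T KO and dKO lay just below the lower WT library on day 2 (30.8 and 29.2 FPKM), and T KO on day 3 lay between the libraries at 51.1 FPKM. Sat1 also differed by about as much between the WT lines on day 2, at 25.4 FPKM in the Smad4 line and 50.9 FPKM in F1G4.

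**Figure D5:**
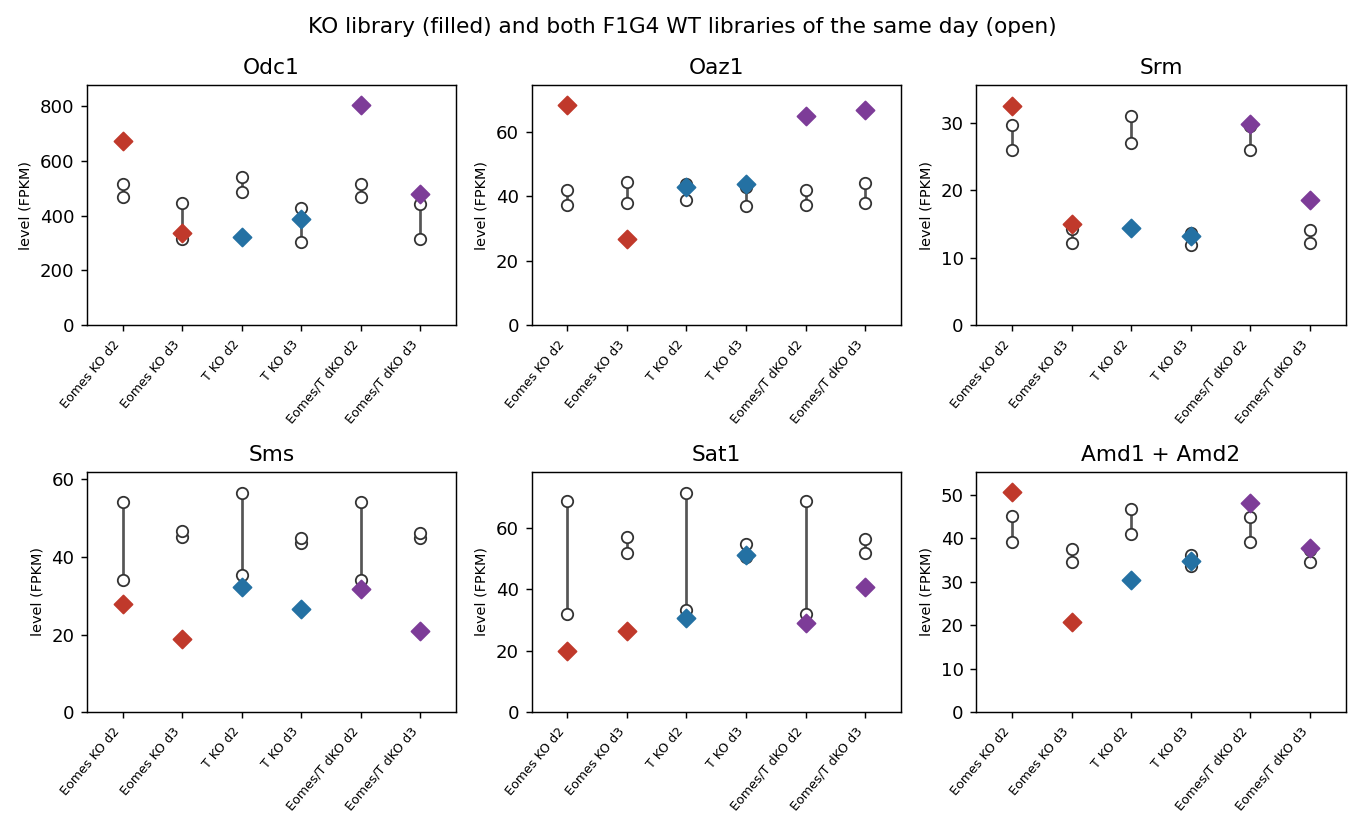
Levels in FPKM of Odc1, Oaz1, Srm, Sms, Sat1 and the Amd sum in each F1G4-derived KO library (filled diamonds) and in both F1G4 WT libraries of the same day and table (open circles joined by a line), from 0. Sms lies below both WT libraries in 6 of 6 comparisons, which share WT libraries within a day. The WT libraries of Sat1 on day 2 are more than 2-fold apart. Red, blue and purple mark Eomes KO, T KO and dKO.

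The place of each KO library beside both WT libraries was counted over Odc1, Srm, Sms, Oaz1, Sat1, the Amd sum and, on day 3, Arg1. Eomes KO was above both in 4 and below both in 2 on day 2, where 35% of all genes were above and 34.8% below, and above in 1 and below in 5 on day 3, where 36.8% were above and 40.4% below. T KO was above in 0 and below in 5 on day 2 (39.5% and 40% of all genes), and above in 1, below in 2 and between in 4 on day 3 (30.2% and 30.7%). dKO was above in 4 and below in 2 on day 2 (38.2% and 37.2%), and above in 4 and below in 3 on day 3 (34.7% and 37.6%). Lying outside both libraries was thus common among all genes. Eomes KO on day 3 and T KO on day 2 were also the KO libraries with the most genes past 2-fold, and T KO on day 2 was the shallowest of the KO libraries. The places were counted in FPKM and can differ in TPM. Rescaling to TPM shifted the ratios of all genes by -0.22 in Eomes KO and -0.41 in dKO on day 2, and by 0.28 in Eomes KO on day 3.

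Other genes around the pathway were read from lists of arginine, polyamine, hypusine and Myc genes. Of 17 genes of arginine supply and use, 8 were examined between WT day 3 and ES cells, with 2 lower and 4 higher. Over all genes examined, 12.6% were lower and 18.5% higher. Slc7a3, an arginine transporter gene, was lower (83.4 and 18.5 FPKM in ES cells and on day 3, -2.17), and so was Ass1, which makes argininosuccinate (26.1 and 7.12 FPKM, -1.87). Oat, ornithine aminotransferase, was higher (22.7 and 88.3 FPKM, 1.96), with Asl (1.41), Gatm (1.51) and Azin2 (3.72). Azin2 is an antizyme inhibitor gene that was placed in this list and not in the list with the antizymes.

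In the KO comparisons, 0 to 3 of the 8 or 9 examined genes of the arginine list passed, beside 4.77% to 16.4% of all genes. The 3 were in T KO on day 2, where 15.6% of all genes passed. Slc7a1, another arginine transporter gene, was lower on day 2 in Eomes KO (-1.53), T KO (-1.87) and dKO (-1.76), from 7.56 to 7.88 FPKM in WT to 2.15 to 2.62 FPKM in KO; these comparisons share WT libraries. Against the deeper WT library alone, the ratio in Eomes KO was -1.04. Ass1 was higher in T KO on day 2 (26.1 against 12.3 FPKM, 1.09) and day 3 (30.5 against 7.17 FPKM, 2.09). Against the shallower WT library alone, its day 2 ratio was 0.70, short of 2-fold. Its day 3 ratio is to the WT mean only, as values for each WT library were not available. In Smad4 KO Ass1 was lower on day 2 (4.62 against 29.3 FPKM, -2.66). Slc7a3 was higher in Smad4 KO on day 2 (120 against 44.0 FPKM, 1.45). Gamt passed in 4 of the 8 comparisons, at 1.45 FPKM or less, and against the shallower WT library alone fell short of 2-fold in Eomes KO (0.85) and T KO (0.48) on day 3. Gatm passed in Smad4 KO on day 1, where it was higher.

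Of 10 genes of polyamine catabolism, antizymes and transport, Slc3a2, the heavy chain of amino acid transporters, was lower in Eomes KO on day 3 (23.9 against 64.0 FPKM, -1.42) and in T KO on day 2 (38.8 against 85.5 FPKM, -1.14). Azin1, an antizyme inhibitor that protects Odc1, was lower in Eomes KO on day 3 (28.9 against 59.3 FPKM, -1.04), but short of 2-fold against the shallower WT library alone (-0.77). Sat2 was higher in Smad4 KO on day 1 (1.16) and lower in T KO on day 2 (-1.09), at 2.91 FPKM or less; no gene of this list passed in the other 4 KO comparisons of F1G4-derived cells or in Smad4 KO on day 2. In WT, 1 of 8 examined genes, Sat2, differed between day 3 and ES cells (1.69), where 31.1% of all genes did. The antizyme inhibitor gene Azin2, higher on day 3, was counted in the arginine list instead.

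All 12 genes of hypusine synthesis and methionine salvage were examined in each comparison. Eif5a, the protein of which carries hypusine made from spermidine, was the most abundant, from 332 FPKM in Eomes KO on day 3 to 782 FPKM in dKO on day 2, and passed in none of the 13 comparisons. Mat2a, which makes S-adenosylmethionine, was lower on WT day 3 than in ES cells (56.3 and 146 FPKM, -1.37) and higher in dKO on day 3 (131 against 58.4 FPKM, 1.17). Its day 3 WT libraries were at 74.9 and 37.7 FPKM, and against the deeper alone the dKO ratio was 0.76, short of 2-fold. Adi1 of methionine salvage was lower in Eomes KO on day 3 (-1.34) and T KO on day 2 (-1.31).

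Myc proteins are known to bind the Odc1 gene, so 9 genes of the family were read. Mycn was lower on each day than in ES cells (129 FPKM in ES cells, 58.2, 25.6 and 24.5 FPKM on days 1 to 3), and its day 3 WT libraries were at 39.0 and 10.0 FPKM. Myc was at 7.14 FPKM in ES cells and 2.72 FPKM on day 3 (-1.39) and lower in Smad4 KO on day 2 (2.17 against 4.93 FPKM, -1.18). Mycl was higher on WT day 3 than in ES cells (2.40) and lower in Eomes KO (-2.11) and dKO (-1.58) of that day. Its WT libraries were apart (6.73 and 15.2 FPKM in the dKO table), and against the deeper alone the ratio was -1.41 in Eomes KO and -0.88, short of 2-fold, in dKO. Mycn passed in no KO comparison in FPKM. It came closest in T KO on day 2 (51.8 against 26.4 FPKM, 0.97), where rescaling to TPM shifts ratios by 0.12. The WT libraries of that day were at 31.0 and 20.1 FPKM in the time course.

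The genes whose pattern was most like that of Odc1 were Rbm34 (r = 0.97), Slc25a15, Nsun5, Ddx4 and Ppil1 (0.91 each) over the same 14 conditions. Rbm34 was at 45.8 FPKM in ES cells, 29.3 FPKM on WT day 3 and 54.6 FPKM in dKO on day 2, its highest level as for Odc1. Of the genes next to Odc1, Nol10 was lower on WT day 3 than in ES cells (25.0 and 52.2 FPKM, -1.06) and Hpcal1 passed in none of the 13 comparisons.

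Promoters, from 250 bases before to 50 after the start, were taken from RefSeq on build GRCm38.p6 (mm10) for 6 of the 8 genes, Amd1, Amd2, Oaz1, Odc1, Sat1 and Sms; Arg1 and Srm were not matched. The T-box core GGTGTGA was searched on both strands and was in none of them, and 3.98% of 32851 promoters hold it. The E-box CACGTG, to which Myc proteins bind, was found in 1 of the 2 Sms promoters, at position -196 from the start, and 7.15% of promoters hold it. The motif TATAAA was found at position -3 of Oaz1, and 13.6% of promoters hold it. The Odc1 promoter held none of these motifs, with 78% G or C. The rest of each gene, introns included, was not searched, so a site outside the promoter stretch would be missed.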

How the data were processed

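Strand-specific total RNA was sequenced from 18 samples. The authors aligned trimmed read pairs with HISAT2 2.1.0 to mm10 and computed FPKM per RefSeq gene with Cuffdiff 2.2.1, correcting for multiply mapped reads and sequence bias; the deposited values are FPKM, 1 column per condition, and F1G4 WT columns are the authors' mean of 2 samples. In the 9 tables, 4 rows with repeated gene names were dropped.

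From the deposited FPKM, log2 ratios to the reference of the same table were computed (Python 3.11.15, pandas 2.3.3). Genes above 1 FPKM in either group were examined and counted past 2-fold; medians used a pseudocount of 0.1. No test was run. The worth of 1 fragment was the lowest densely filled value of FPKM times transcript length. WT means were split by least squares over 4 tables and kept with an error under 5% of the mean. On simulated libraries the split was within 5% for 100% of genes above a minimum of fragments. Those libraries were pooled by the same model that the split inverts. The simulation thus checks the arithmetic and cannot show whether the deposited FPKM follow that model. Levels set across tables use the time course for F1G4 WT, from which the other WT columns differed by a median factor of 0.989 to 1.04.

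The 8 genes and the lists were chosen with earlier results of these data known. Named genes are the 8, their Amd sum, the targeted genes, list genes past 2-fold or above 50 FPKM, 5 genes of like pattern and 2 neighbours per side; others (markers, Mixl1, Mesp1, Arg2, Otc) were named after their values were seen. Alternatives were other pseudocounts, minimums, scalings and references, and each split WT library alone, the last chosen after seeing the data.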

Additional observations from a re-analysis of the deposited data

Results flagged for a closer look

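Amd1 differed in opposite directions between KO comparisons past the 2-fold rule. Its log2 ratio of KO to WT was 9.23 in Smad4 KO on day 1, and -10.02 in Eomes KO on day 3, -12.25 in T KO on day 2 and -1.69 in T KO on day 3. The difference between these comparisons was not tested. The sum of Amd1 and Amd2 had log2 ratios of 0.00, -0.80, -0.52 and 0.00 in the same order, and 86.0% of 50-base windows of the Amd1 transcript are shared with Amd2.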

How the results depend on the processing

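Counts of the 8 genes past the 2-fold rule that moved by more than 1.5 times are given first. With no FPKM minimum, Arg1 was added and the count was 2 in place of 1 for Smad4 KO on day 1, Eomes KO on day 2 and WT day 2 against day 1, and 1 in place of 0 for dKO on day 2. With Amd1 and Amd2 summed it was 0 in place of 1 for Smad4 KO on day 1, 1 in place of 2 for T KO on days 2 and 3 and for WT day 2 against ES, and 0 in place of 2 for WT day 1 against ES. In TPM it was 2 in place of 4 for Eomes KO on day 3 (without Sms and Sat1), 1 in place of 2 for T KO on day 2 (without Srm) and WT day 2 against ES (without Sms), and 1 in place of 0 for dKO on day 2 (Sat1, -1.19). T KO on day 2 also had 1 in place of 2 with a pseudocount of 1, with columns scaled to their median and with WT of the time course, and WT day 2 against ES had 1 in place of 2 with columns scaled to their median. Smaller moves were 3 in place of 2 with no FPKM minimum, by Arg1, for T KO on day 2 and WT day 2 against ES; 3 in place of 4 with the Amd sum for Eomes KO on day 3 and WT day 3 against ES; 3 in place of 4 for WT day 3 against ES in TPM and by median scaling (without Sms); and 3 in place of 4 for Eomes KO on day 3 by median scaling and with WT of the time course (without Sat1). The cause was not tested beyond how each alternative is built.

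Leaving out 1 WT library, with Amd1 and Amd2 as a sum, gave 0 to 1 genes for Eomes KO on day 2, 2 to 3 on day 3, 1 for T KO on both days, 0 to 1 for dKO on day 2 and 2 for dKO on day 3. It was not run for the Smad4 line, with 1 library per group, or the time course. Of the single-gene ratios under all alternatives, 669 kept their side of the limit, 15 fell short of it, 3 went past it and none changed sign while past it. Of the 5 genes most like Arg1, 3 remained with a pseudocount of 1. No paired analysis was possible because each column is a mean or 1 sample and no column carries a replicate number. Depth limited Arg1 outside day 3 WT, where 12 fragments were the most in any KO library.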
